A study of Homo sapiens with 10 samples.

Results

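The epidermal growth factor (EGF) receptor family was followed through its 4 receptors, *EGFR*, *ERBB2*, *ERBB3* and *ERBB4*, and 6 of its ligands, *AREG*, *EREG*, *HBEGF*, *TGFA*, *BTC* and *NRG1*, in sorted human embryonic stem cell (hESC)-derived thyroid cells. These 10 genes were taken by symbol, as a list of family members, from the 28265 gene symbols of the count tables. All 10 had at least 5 counts in at least 2 libraries and were therefore among the 21014 genes tested.

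Bulk RNA-seq was available for cells sorted by their NKX2-1 GFP+ signal on days 16, 23, 31, 38 and 45 of differentiation, as 10 libraries, 2 of them for each day, which the study describes as biological replicates. All libraries came from a single modified hESC line, ESIBIe003-A-6, in which GFP replaces part of an *NKX2-1* allele and doxycycline switches on *NKX2-1* and *PAX8* transgenes. Pooled culture wells gave each library, and the differentiation medium contained serum. The total of counted reads per library ran from 7247268 to 10333933, and 3 counts, taken as the floor of detection, correspond to between 0.307 and 0.435 CPM (counts scaled to the total of the library after TMM factors). The floor covers counting error only. RN7SK, an abundant nuclear RNA, took the most counts in every library, with 6.82 and 7.11% on day 16, 4.40 and 4.42% on day 23, 2.92 and 3.86% on day 31, 8.17 and 6.76% on day 38, and 7.04 and 5.14% on day 45. Of the weekly steps, its share differed most between days 31 and 38. Over that step *EGFR* had a log2 fold change of 0.71 with TMM factors and 0.49 with plain library size, and *ERBB2* -0.74 and -0.96, and both genes passed the test of edgeR under either scaling.

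The groups differed in medium as well as in age. By the study's methods, day 16 cells had been through activin A, doxycycline and then basal medium, and day 23 and day 31 cells had received 8-br-cAMP, a cell-permeable cAMP analogue. Day 38 cells had received recombinant human TSH and dexamethasone, a glucocorticoid, in its place, and day 45 cells had in addition received SB431542, which inhibits TGFβ receptor kinases. The study's text dates the start of SB431542 both to day 38 and to the day before, so a short exposure of the day 38 cells is possible. The labels differ from this in naming cAMP on day 16 and in leaving dexamethasone out on day 45. They also give cAMP for day 31, whereas the study's text places the replacement of cAMP by TSH and dexamethasone shortly before that day, so it is unclear which medium the day 31 cells were last in, and this bears on the step from day 31 to day 38. Time and medium changed together, so their effects cannot be told apart, and the study's libraries of cells kept on cAMP were not analysed here.

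EGF family receptors are tyrosine kinases of the cell surface that pair when a ligand binds and then signal through the RAS-ERK, PI3K-AKT and STAT pathways. AREG, EREG, HBEGF, TGFA and BTC bind EGFR, and HBEGF, EREG and BTC also bind ERBB4, while neuregulins such as NRG1 bind ERBB3 and ERBB4. ERBB2 has no known ligand of its own and serves as a partner for the others, whereas ERBB3 has little kinase activity and relies on its partners. The ligands are made as membrane proteins and are released by proteases, and EGF is a long-known growth factor for cultured thyroid follicular cells that lowers their differentiated functions.

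The label of the cells was first compared with marker genes. The 12 thyroid markers summed to 1863 and 1465 CPM in the libraries of day 16, 1661 and 1616 on day 23, 1644 and 1589 on day 31, 7538 and 6750 on day 38, and 9553 and 9076 on day 45. The increase from day 38 was carried mostly by *TG*, the thyroid hormone precursor, whose mean level was 206 CPM on day 31, 5209 CPM on day 38 and 7742 CPM on day 45. *SLC5A5*, the iodide transporter of mature thyroid cells, had at most 13 counts in a library of day 23 or 31, and at least 43 in those of days 38 and 45. *NKX2-1* itself was counted at between 400 and 1479 reads in every library, although reads of the transgene and of the endogenous gene cannot be told apart. Of the listed transcription factors of thyroid cells, *NKX2-1* fell from 143 to 62.4 CPM between day 38 and day 45. *FOXE1* fell from 373 to 211 CPM and *HHEX* from 283 to 155 CPM in that week, in which *EREG* and *HBEGF* rose. *PAX8*, at 514 CPM on day 38 and 518 CPM on day 45, did not pass the test. The thyroid markers *TG* and *DUOX2* (150 to 226 CPM) rose in the same week. Between day 16 and day 45 *NKX2-1*, *FOXE1* and *PAX8* fell, the last from 650 to 518 CPM, and *HHEX* rose from 115 to 155 CPM. Their part in the changes of the family was not tested.

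Of the 10 genes, 9 differed between days at an adjusted p under 0.05, *BTC* being the exception (adjusted p = 0.184, edgeR quasi-likelihood test over all days, Benjamini-Hochberg over 21014 genes). Among all genes tested, 36.3% passed the same test. Between day 16 and day 45, 7 of the 10 passed, with *AREG*, *EGFR*, *ERBB3*, *EREG* and *HBEGF* higher and *ERBB2* and *ERBB4* lower, against 24.6% of all genes (12.9% higher, 11.7% lower). In bulk samples, fewer cells of a type and less RNA per cell cannot be told apart, and the weekly comparisons below share libraries, since each day but the first and last serves in more than 1 of them. Where nothing else is named, adjusted p-values are from this fit of all 10 libraries, and a gene is said to rise or fall only where its adjusted p was under 0.05.

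**Figure D1:**
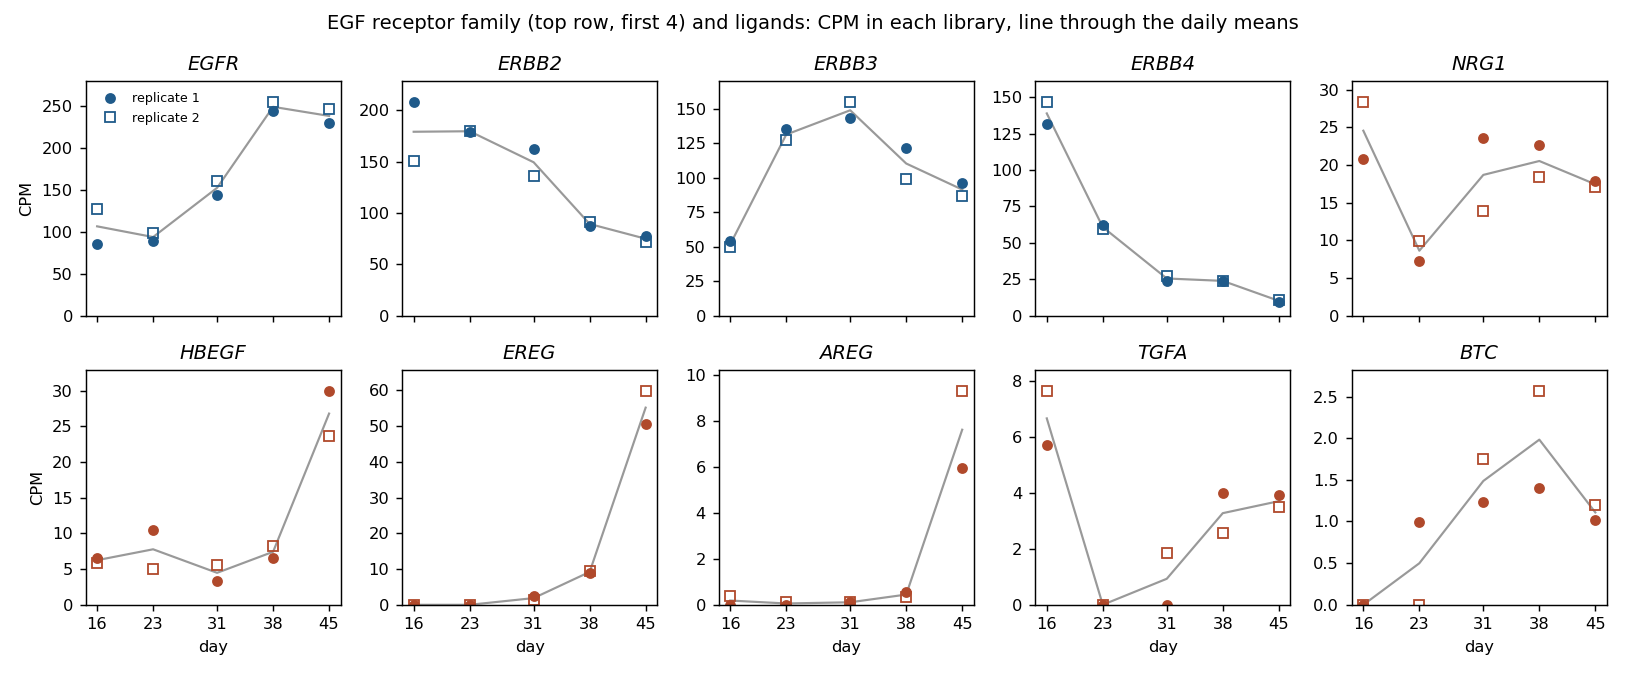
CPM (y axes, linear, each gene on its own scale) of the 4 receptors (blue) and 6 ligands (red) against the day of differentiation (x axes), with filled circles for replicate 1, open squares for replicate 2 and grey lines through the daily means of 2 libraries. EGFR climbs and ERBB2 and ERBB4 descend over the month, ERBB3 peaks on day 31 (149 CPM), and EREG, AREG and HBEGF are highest on day 45.

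*ERBB4*, the neuregulin receptor that also takes some *EGFR* ligands, had the largest decrease among the receptors between days 16 and 45. Its level was 131 and 146 CPM on day 16, 62.2 and 59.5 on day 23, 24.1 and 27.0 on day 31, 23.9 and 24.0 on day 38, and 9.43 and 11.03 on day 45. The libraries of consecutive days did not overlap at any step, although those of days 31 and 38 were almost level. *ERBB4* fell from day 16 to day 23 (log2 fold change -1.19, SE 0.20, adjusted p = 4.88e-05), from day 23 to day 31 (-1.25, SE 0.20, adjusted p = 0.000172) and from day 38 to day 45 (-1.22, SE 0.22, adjusted p = 0.000161). Between day 31 and day 38 the log2 fold change was -0.10 (SE 0.21, adjusted p = 0.838). Over the month the level fell by 3.76 on the log2 scale (SE 0.23, adjusted p = 2.82e-15). *ERBB4* lies on chr2:211375717-212538841 (GRCh38, minus strand).

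*EGFR*, which binds EGF, *TGFA*, *AREG*, *EREG* and *HBEGF*, rose in the middle weeks. The libraries held 85.8 and 127 CPM on day 16, 88.6 and 98.5 on day 23, 144 and 160 on day 31, 243 and 254 on day 38, and 229 and 246 on day 45. The day 16 and day 23 libraries overlapped, each later day lay above both, and days 38 and 45 overlapped again. *EGFR* rose from day 23 to day 31 (log2 fold change 0.70, SE 0.15, adjusted p = 0.0064), from day 31 to day 38 (0.71, SE 0.15, adjusted p = 0.000868) and from day 16 to day 45 (1.16, SE 0.15, adjusted p = 2.78e-07). The first of these rises missed the threshold without day 23 replicate 1 (0.63, adjusted p = 0.151) and without day 31 replicate 2 (0.61, adjusted p = 0.129), and its adjusted p ran from 0.00026 to 0.151 over 17 alternatives. From day 38 to day 45 the log2 fold change was -0.06 (SE 0.15, adjusted p = 0.869). *EGFR* lies on chr7:55019017-55211628 (GRCh38, plus strand), and 1.17% of its exon bases are shared with the antisense RNA *EGFR-AS1*, whose reads cannot be separated because the strand setting of the counting is not given in the sources used here.

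*ERBB2*, the ligandless partner receptor, moved the other way. It was at 208 and 150 CPM on day 16, 179 and 180 on day 23, 163 and 136 on day 31, 87.5 and 91.1 on day 38, and 77.6 and 72.2 on day 45. All 4 libraries of days 38 and 45 lay below all 6 of the earlier days. *ERBB2* fell from day 31 to day 38 (log2 fold change -0.74, SE 0.16, adjusted p = 0.000656) and from day 16 to day 45 (-1.26, SE 0.16, adjusted p = 8.88e-08), and the other weekly steps did not pass the test. *ERBB2* lies on chr17:39687914-39730426 (GRCh38, plus strand), where *MIEN1* and *PGAP3* on the opposite strand cover 5.53% and 1.40% of its exon bases.

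*ERBB3*, the kinase-poor neuregulin receptor, rose early. Its levels were 53.9 and 49.6 CPM on day 16, 136 and 127 on day 23, 143 and 155 on day 31, 122 and 99.1 on day 38, and 95.9 and 87.0 on day 45. Every later library was above both day 16 libraries. The rise from day 16 to day 23 was 1.34 on the log2 scale (SE 0.16, adjusted p = 1.41e-07), and that from day 16 to day 45 was 0.82 (SE 0.16, adjusted p = 0.000137). The day 38 libraries were both below the day 31 libraries, but the difference of -0.43 (SE 0.15) just missed the threshold in edgeR (adjusted p = 0.0540) and passed it in DESeq2 (adjusted p = 0.0227), with a range of 0.00217 to 0.494 and 8 calls over 17 alternatives. *ERBB3* lies on chr12:56076799-56103505 (GRCh38, plus strand).

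Week by week, 4 of the 10 genes passed the test from day 16 to day 23 (*ERBB3* higher, *ERBB4*, *NRG1* and *TGFA* lower), against 10.9% of all genes (5.6% higher, 5.33% lower). From day 23 to day 31, 3 passed (*EGFR* and *EREG* higher, *ERBB4* lower), against 2.25% (1.58% higher, 0.666% lower). From day 31 to day 38, 3 passed (*EGFR* and *EREG* higher, *ERBB2* lower), against 15.0% (8.8% higher, 6.23% lower), and from day 38 to day 45, 3 passed (*EREG* and *HBEGF* higher, *ERBB4* lower), against 11.2% (4.85% higher, 6.35% lower). The median log2 fold change of the 10 genes in these 4 steps was -0.09, 0.75, 0.56 and -0.15, where the medians of all genes were -0.02, 0.00, 0.00 and -0.02. Genes absent on a compared day enter these medians with a fitted value, and the medians were the same with such genes at their lower bounds. Library size without TMM factors shifted the median of all genes from day 31 to day 38 to -0.20. The split of genes called changed from 1850 higher and 1310 lower to 1183 higher and 2368 lower. *EGFR* and *EREG* were still higher and *ERBB2* still lower, and *ERBB3* was called lower in addition (-0.65, adjusted p = 0.00217 in edgeR).

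**Figure D2:**
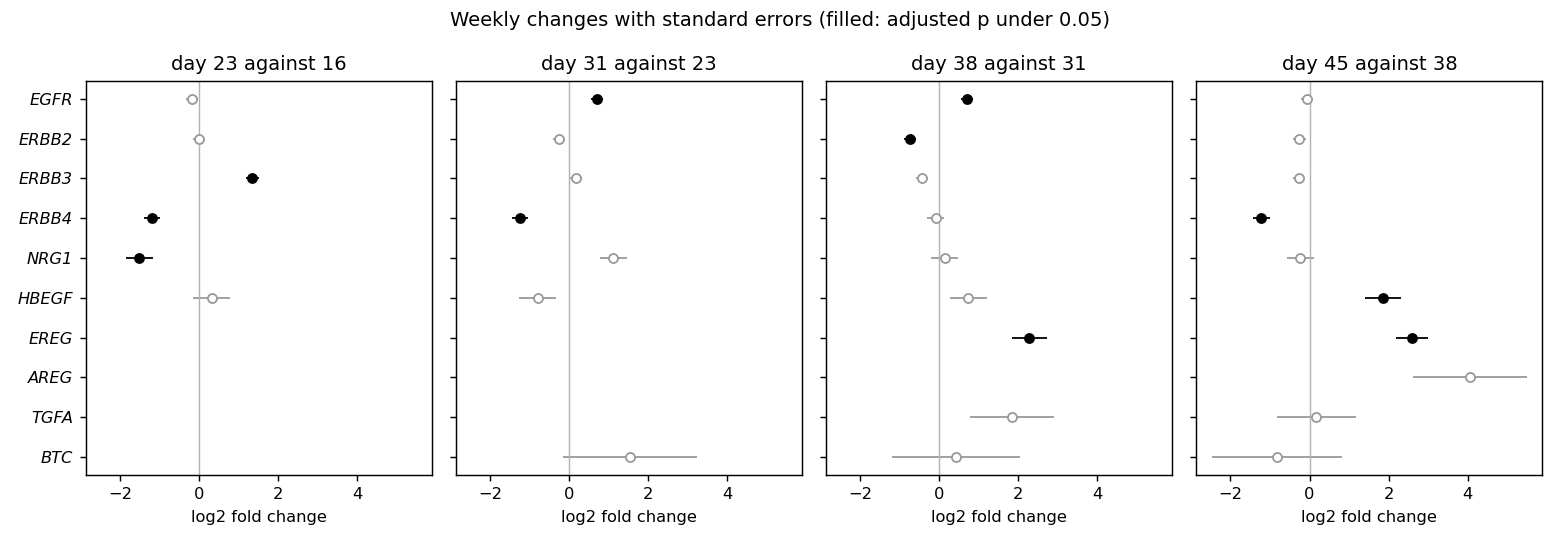
log2 fold change (x axes) of each gene in the 4 weekly comparisons (panels), with bars for the standard error and filled points for an adjusted p under 0.05 in edgeR. Genes with 3 or fewer counts on a compared day are left out of that panel, because the fitted value would depend on the prior count, and the filled points are those of ERBB3, ERBB4 and NRG1 in the first panel and of 2 or 3 genes in each of the others.

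Among the 6 ligands of the family list, *EREG*, *AREG* and *HBEGF* were those that rose from day 16 to day 45. *EREG* and *AREG* are neighbours on the long arm of chromosome 4, and *HBEGF* is on chromosome 5. The genes lie on chr4:74365145-74388749 (*EREG*, plus strand), chr4:74445136-74455005 (*AREG*, plus strand) and chr5:140332843-140346603 (*HBEGF*, minus strand) of GRCh38. Their promoter windows are the 250 bases before the start of each gene in RefSeq (GRCh38.p14). The windows are shown because these were the ligands, among the 6 listed, that rose from day 16 to day 45. The genes are 3 of the 8 family members found in the table of windows. Capitals mark TGACGTCA, the letters of the cAMP response element, its first part TGACG, and TATAAA, the letters of the TATA box, each searched on both strands. The windows are chr4:74364895-74365144 for *EREG*, chr4:74444886-74445135 for *AREG* and chr5:140346604-140346853, read on the minus strand, for *HBEGF*.
EREG: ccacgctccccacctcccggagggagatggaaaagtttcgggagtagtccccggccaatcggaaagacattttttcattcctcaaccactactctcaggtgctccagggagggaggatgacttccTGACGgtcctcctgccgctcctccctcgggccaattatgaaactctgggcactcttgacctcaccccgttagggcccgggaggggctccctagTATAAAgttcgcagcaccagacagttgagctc
AREG: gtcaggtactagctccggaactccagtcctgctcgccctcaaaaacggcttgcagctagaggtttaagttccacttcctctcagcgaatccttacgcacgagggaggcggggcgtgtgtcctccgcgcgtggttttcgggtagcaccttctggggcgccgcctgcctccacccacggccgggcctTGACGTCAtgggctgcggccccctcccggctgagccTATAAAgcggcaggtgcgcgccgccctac
HBEGF: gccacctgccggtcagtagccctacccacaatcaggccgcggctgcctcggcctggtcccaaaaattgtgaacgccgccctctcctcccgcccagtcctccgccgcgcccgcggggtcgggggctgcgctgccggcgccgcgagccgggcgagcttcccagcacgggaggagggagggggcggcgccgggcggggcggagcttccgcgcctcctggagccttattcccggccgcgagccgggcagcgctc
The *AREG* window holds TGACGTCA, with its first base 65 bases before the start, and TATAAA at 29 bases. The *EREG* window holds TGACG at 125 bases and TATAAA at 32 bases, and the *HBEGF* window holds none of these letters. In 35116 promoter windows of 250 bases, TGACGTCA was found in 1.65%, TGACG, which every TGACGTCA also contains, in 21.2% and TATAAA in 10.7%. The letters TGANTCA of the AP-1 site, present in 6.57% of windows, were in none of the 3. A match of letters is a description of the sequence and says nothing of binding in these cells.

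*EREG* (epiregulin), a ligand of *EGFR* and *ERBB4*, went from no reads to more reads per library than on any earlier day. It had 0 counts in all 4 libraries of days 16 and 23, 23 and 12 counts on day 31, 82 and 82 on day 38, and 349 and 547 on day 45. In CPM this was 2.35 and 1.40 on day 31, 8.85 and 9.55 on day 38, and 50.7 and 59.7 on day 45. No library of a day overlapped with any of the next day from day 23 onwards. *EREG* rose from day 31 to day 38 (log2 fold change 2.28, SE 0.45, adjusted p = 0.000333) and from day 38 to day 45 (2.58, SE 0.40, adjusted p = 1.92e-05). Against the floor of 3 counts per library, the day 45 level was at least 147-fold higher than that of day 16 (adjusted p = 6.19e-13), and the day 31 level at least 5.55-fold higher than that of day 23 (adjusted p = 0.00022). The last of these did not pass in a fit of only the 4 libraries compared (adjusted p = 0.238), and its adjusted p ran down to 8.68e-07 over the alternatives.

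*AREG* (amphiregulin), an *EGFR* ligand and a well-known cAMP-responsive gene in several tissues, was near the floor until day 38. Its counts were 0 and 3 on day 16, 0 and 1 on day 23, 1 and 1 on day 31, 5 and 3 on day 38, and 41 and 85 on day 45, where its level was 5.95 and 9.28 CPM. Both day 45 libraries were above all the others. The level rose 41.9-fold from day 16 to day 45 (95% counting interval 14.0 to 206, adjusted p = 0.0117), a call that was lost without day 16 replicate 1 (adjusted p = 0.102) and without day 45 replicate 2 (adjusted p = 0.146) and otherwise reached 0.00085. The fitted log2 fold change was 5.25, and 4.304 without day 16 replicate 1, the library with no reads. From day 38 to day 45 the log2 fold change was 4.05 (SE 1.44), which missed the threshold in edgeR (adjusted p = 0.0656) and passed it in DESeq2 (adjusted p = 0.00883), with a range of 0.00127 to 0.379 and 8 calls over 17 alternatives.

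*HBEGF*, the heparin-binding ligand of *EGFR* and *ERBB4*, was present at low levels throughout and rose in the last week. It was at 6.59 and 5.91 CPM on day 16, 10.5 and 5.03 on day 23, 3.38 and 5.58 on day 31, 6.59 and 8.26 on day 38, and 29.9 and 23.7 on day 45. The first 4 days overlapped in turn, apart from days 31 and 38, and the day 45 libraries were above all of them. *HBEGF* rose from day 38 to day 45 (log2 fold change 1.85, SE 0.45, adjusted p = 0.00482) and from day 16 to day 45 (2.10, SE 0.46, adjusted p = 0.000615). The rise of the last week missed the threshold without day 38 replicate 1 (1.69, adjusted p = 0.101) and without day 45 replicate 1 (1.67, adjusted p = 0.0657), and its adjusted p was as low as 0.000498 in another alternative.

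*TGFA* (TGFα), an *EGFR* ligand, and *NRG1*, the neuregulin of *ERBB3* and *ERBB4*, were both lower on day 23 than on day 16. *TGFA* had 45 and 62 counts on day 16, 0 and 0 on day 23, 0 and 16 on day 31, 37 and 22 on day 38, and 27 and 32 on day 45. Day 23 was lower than day 16 by at least 19.7-fold (adjusted p = 0.000722), against the floor of 3 counts per library, and no later step passed the test in edgeR. For the step from day 23 to day 31 the adjusted p was 0.116, and 2 of 15 alternatives called it (lowest adjusted p = 0.0344). The day 31 libraries disagreed on whether *TGFA* was present at all. *TGFA* lies on chr2:70447284-70554193 (GRCh38, minus strand).

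*NRG1* was at 20.8 and 28.3 CPM on day 16, 7.31 and 9.94 on day 23, 23.5 and 13.8 on day 31, 22.7 and 18.4 on day 38, and 17.9 and 17.0 on day 45. Day 23 was below every other library. *NRG1* fell from day 16 to day 23 (log2 fold change -1.51, SE 0.35, adjusted p = 0.00307), which missed the threshold without day 23 replicate 1 (-1.30, adjusted p = 0.063) and otherwise reached 0.000529. The step from day 23 to day 31 was 1.12 (SE 0.35, adjusted p = 0.0969), and none of 17 alternatives called it. *NRG1* lies on chr8:31639222-32855666 (GRCh38, plus strand).

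*BTC* (betacellulin), a ligand of *EGFR* and *ERBB4*, stayed low. Its counts were 0 and 0 on day 16, 9 and 0 on day 23, 12 and 15 on day 31, 13 and 22 on day 38, and 7 and 11 on day 45. No comparison of days called it in edgeR. The day 45 level was at least 2.96-fold higher than that of day 16 against the floor (adjusted p = 0.0687 in edgeR and 0.0314 in DESeq2, which called it, highest over the alternatives 0.212). *BTC* is on the same stretch of chromosome 4 as *EREG* and *AREG*, at chr4:74744759-74794523 (GRCh38, minus strand).

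To compare genes with each other, CPM was divided by the exon length in kilobases (kb). On this scale the 4 receptors together changed little until day 31, with sums of 39.1 ± 1.53 CPM per kb (SD, n = 2) on day 16, 39.2 ± 0.123 on day 23 and 38.7 ± 0.269 on day 31, followed by 35.5 ± 0.637 on day 38 and 30.8 ± 0.0760 on day 45. The make-up of the sum changed more than the sum. *EGFR* made up 17.2% ± 5.32 (SD, n = 2) of it on day 16 and 48.5% ± 2.56 on day 45, *ERBB2* 44.2% ± 8.29 and 23.6% ± 1.16, *ERBB3* 11.3% ± 0.215 and 25.4% ± 1.69, and *ERBB4* 27.4% ± 3.18 and 2.56% ± 0.288. The libraries of these 2 days did not overlap for any of the 4 shares. The values depend on the length used, and with the longest transcript in place of all exons the sums were 66.8 CPM per kb on day 16 and 54.6 on day 45, and the shares of *ERBB4* 17.3% and 1.55%.

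The 6 ligands summed to 4.71 ± 0.524 CPM per kb (SD, n = 2) on day 16, 3.23 ± 1.43 on day 23, 3.52 ± 0.494 on day 31, 6.74 ± 0.361 on day 38 and 25.2 ± 1.05 on day 45. Both day 45 libraries were thus above all 8 others. At day 45, *EREG* made up 38.2% ± 2.86 of the ligand sum, *HBEGF* 35.6% ± 7.30 and *AREG* 18.3% ± 4.92, and in day 16 libraries *HBEGF* made up 44.9% ± 8.42, *TGFA* 28.7% ± 2.70 and *NRG1* 24.3% ± 2.59. The ligand sum was 10.8% and 13.4% of the receptor sum in the libraries of day 16, and 79.5% and 84.6% in those of day 45. These percentages depend on the length used. With the longest transcript, the ligand sum was 6.38 CPM per kb beside a receptor sum of 66.8 on day 16. On day 45 it was 32.2 beside 54.6. These sums were not tested.

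The order of the 10 genes on the same scale changed accordingly. At day 16 it ran *ERBB2* (17.3 CPM per kb), *ERBB4* (10.7), *EGFR* (6.67), *ERBB3* (4.42) and *HBEGF* (2.09), with no overlap between neighbours, then *TGFA* and *NRG1*, which overlapped. At day 45 it ran *EGFR* (14.9), *EREG* (9.66), *HBEGF* (8.96), *ERBB3* (7.81), *ERBB2* (7.26) and *AREG* (4.64), followed by *NRG1* (0.816), *ERBB4* (0.786), *TGFA* (0.754) and *BTC* (0.418). *EREG*, *HBEGF*, *ERBB3* and *ERBB2* overlapped from each to the next on day 45, as did *NRG1*, *ERBB4* and *TGFA*. With the length of the longest transcript in place of all exons, *ERBB2* and *ERBB3* stood above *EREG* and *HBEGF* on day 45, so this part of the order depends on the length used. On day 16 that length put *ERBB4* at 11.5 and *EGFR* at 10.7 CPM per kb, closer together than with all exons. The lack of overlap given above for day 16 holds for all exons.

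**Figure D3:**
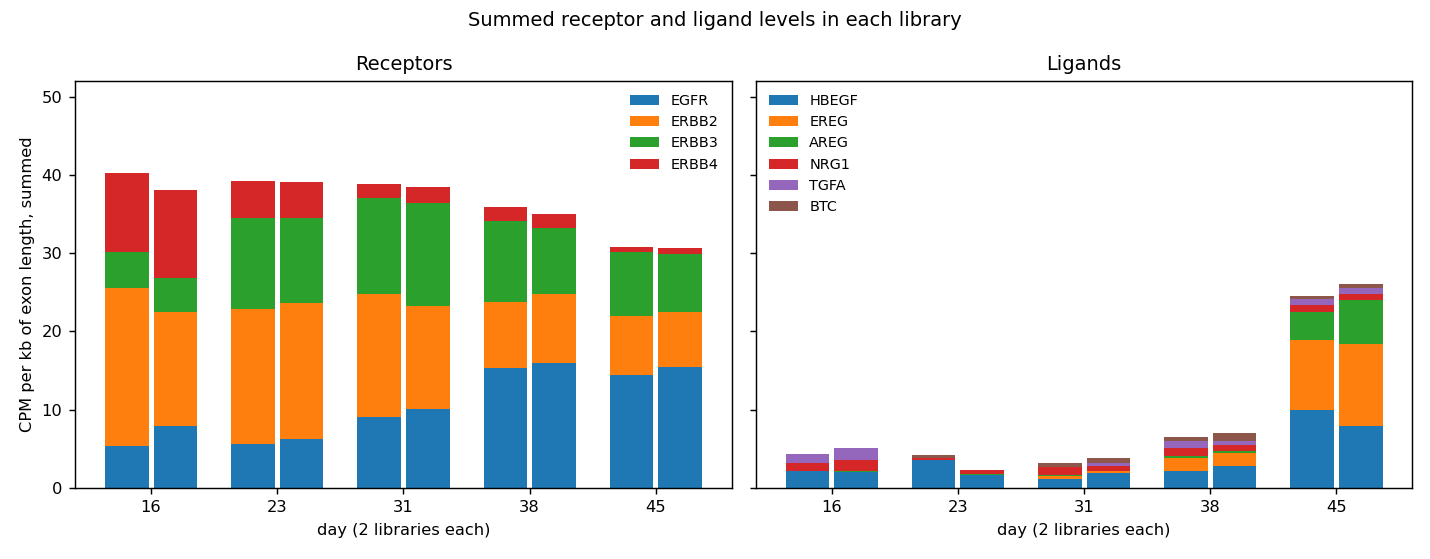
Stacked bars of CPM per kb of exon length (y axis, from 0) for the 4 receptors (left) and the 6 ligands (right) in each of the 10 libraries, 2 bars per day (x axes). The receptor bars keep their height to day 31 and then shorten to 30.8 CPM per kb on day 45 while the EGFR segment widens, and the day 45 ligand bars, at 24.5 and 26.0, stand above all the others.

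The other family ligands were *EGF*, *EPGN* (epigen, an *EGFR* ligand) and the neuregulins *NRG2*, *NRG3* and *NRG4*, and all 5 were tested. *EGF* had 34 and 42 counts on day 16, 60 and 131 on day 23, 134 and 162 on day 31, 33 and 31 on day 38, and 41 and 35 on day 45, so that day 31 stood above all days but day 23. It fell from day 31 to day 38 (log2 fold change -2.18, SE 0.53, adjusted p = 0.00334), a call lost by a small margin without day 38 replicate 1 (adjusted p = 0.0543) or replicate 2 (adjusted p = 0.0511), with a lowest value of 0.000953. *EPGN* had 9 and 7 counts on day 16 and 40 and 66 on day 45 and rose between them (2.68, adjusted p = 0.0371), a call that was lost in 6 of the 10 fits that left out 1 library and had a range of 0.00988 to 0.153. Neither the remaining weekly steps of these genes nor any step of *NRG2*, *NRG3* and *NRG4* passed the test, and the highest daily mean of these neuregulins was 7.23 CPM, for *NRG3* on day 38.

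Of 13 genes that shed, cleave or carry the ligands, 4 passed the test between day 16 and day 45, 3 higher and 1 lower (30.8%, against 24.6% of all genes). *TIMP3*, an inhibitor of the sheddase *ADAM17*, had the largest change. Its counts were 551 and 519 on day 16, 1336 and 1479 on day 23, 2243 and 1834 on day 31, 3122 and 2926 on day 38, and 4903 and 6150 on day 45, and its mean level went from 66.9 to 692 CPM (log2 fold change 3.37, SE 0.14, adjusted p = 1.14e-19). *ADAM17*, which releases *AREG*, *EREG*, *HBEGF* and *TGFA*, had daily means between 79.0 and 89.5 CPM and passed the test in none of the comparisons (adjusted p = 0.924 over all days). *ADAM10*, which cleaves EGF and *BTC*, fell from day 16 to day 23 (528 to 385 CPM, -0.46, adjusted p = 0.011) and rose from day 31 to day 38 (348 to 636 CPM, 0.87, SE 0.12, adjusted p = 1.83e-06). The fall was lost without day 16 replicate 2 (adjusted p = 0.13) and without day 23 replicate 2 (adjusted p = 0.201), with a lowest value of 0.000759 over the alternatives. *RHBDF1*, which carries *ADAM17* to the surface, was lower on day 45 than on day 16 (29.7 to 13.03 CPM, -1.19, SE 0.30, adjusted p = 0.0026). Between the same days *RHBDL2* rose from 6.91 to 22.9 CPM (1.73, SE 0.49, adjusted p = 0.00797), a call made in 15 of 17 alternatives. *ADAM9* also rose between them, from 80.3 to 164 CPM.

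Of 33 adaptors and kinases that act below the receptors, 10 passed between day 16 and day 45, 8 higher and 2 lower (30.3%, against 24.6% of all genes), with a median log2 fold change of 0.19 over the 33 beside 0.00 over all genes. *AKT2*, a kinase of the PI3K branch, rose from 77.9 to 462 CPM (2.57, SE 0.17, adjusted p = 3.54e-14), and *STAT3*, a transcription factor that the receptors can activate, rose from 63.3 to 259 CPM (2.03, SE 0.14, adjusted p = 9.26e-14). The docking protein *GAB1* fell from 135 to 63.1 CPM (-1.10, SE 0.16, adjusted p = 1.45e-06) and the phospholipase *PLCG1* from 157 to 84.7 CPM (-0.88, SE 0.16, adjusted p = 4.84e-05). By step, 3 of the 33 passed from day 16 to day 23, 0 from day 23 to day 31 in edgeR (4 at an unadjusted p under 0.05, and 1 in DESeq2), 11 from day 31 to day 38 (7 higher, 4 lower) and 4 from day 38 to day 45. These were 9.09, 0, 33.3 and 12.1% of the list, beside 10.9, 2.25, 15.0 and 11.2% of all genes. The adaptor *SHC3* changed in both directions, from 2.56 CPM on day 16 to 12.8 on day 23 (2.32, SE 0.53, adjusted p = 0.0026) and from 19.1 CPM on day 31 to 3.51 on day 38 (-2.44, SE 0.52, adjusted p = 0.000751).

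Of 20 genes that inhibit the receptors or take them off the surface, 5 passed between day 16 and day 45, or 25%, close to the 24.6% of all genes. *ERRFI1*, which binds and blocks the kinase of *EGFR* and is itself induced by *EGFR* signalling, had the largest increase of them. It had 1069 and 1101 counts on day 16, 1048 and 831 on day 23, 1754 and 1557 on day 31, 2163 and 1690 on day 38, and 3052 and 4066 on day 45. *ERRFI1* rose from day 38 to day 45 (215 to 443 CPM, log2 fold change 1.04, SE 0.14, adjusted p = 7.47e-07) and from day 16 to day 45 (1.71, SE 0.14, adjusted p = 4.78e-12). It also rose from day 23 to day 31 (0.77, adjusted p = 0.000566), a step lost without day 23 replicate 2 (adjusted p = 0.0707, lowest over the alternatives 8.11e-07). *LRIG1*, a membrane protein that promotes the breakdown of the receptors, was lower on day 45 than on day 16 (44.5 to 27.0 CPM, -0.73, adjusted p = 0.0348), which was lost in 3 of 17 alternatives, namely without day 16 replicate 1 (adjusted p = 0.184), without day 45 replicate 2 (adjusted p = 0.3) and with the 4 libraries compared alone (adjusted p = 0.0718), with a lowest value of 0.0154. *SOCS5*, which targets *EGFR* for breakdown, went from 48.4 to 76.2 CPM (0.65, adjusted p = 0.00672), and lost its call without day 16 replicate 1 (adjusted p = 0.0609, lowest value 0.00196).

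The genes that ERK induces, or that feed back on it, moved in both directions in every weekly step except that from day 23 to day 31, in which those that passed all rose. Of 20 listed genes 19 were tested, *IER3* having at most 8 counts in any library. From day 16 to day 23, 3 rose and 4 fell, from day 23 to day 31, 5 rose and 0 fell, from day 31 to day 38, 1 rose and 9 fell, and from day 38 to day 45, 8 rose and 4 fell. The shares called were 36.8, 26.3, 52.6 and 63.2%, beside 10.9, 2.25, 15.0 and 11.2% of all genes, and the medians were 0.01, 0.59, -0.61 and 0.66 on the log2 scale. In the step with 0 lower in edgeR, 0 were lower at an unadjusted p under 0.05 and 0 in DESeq2.

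*FOSL1*, an AP-1 transcription factor, had 42 and 40 counts on day 16, 0 and 15 on day 23, 37 and 16 on day 31, 30 and 24 on day 38, and 857 and 981 on day 45. Its rise in the last week was 5.25 on the log2 scale (SE 0.44, adjusted p = 8.93e-11), from 3.02 to 116 CPM. *DUSP5*, a phosphatase that acts on ERK, fell from 27.9 CPM on day 16 to 2.59 on day 23 (-3.42, SE 0.38, adjusted p = 4.09e-08) and rose from 7.04 CPM on day 38 to 46.2 on day 45 (2.71, SE 0.35, adjusted p = 6.88e-07). The ETS factors in the list, *ETV1*, *ETV4* and *ETV5*, all fell from day 31 to day 38, and their courses otherwise differed. *ETV5* rose from 7.78 CPM on day 16 to 39.3 on day 23 and 101 on day 31 and fell to 14.8 on day 38 (-2.77, SE 0.26, adjusted p = 3.07e-10), and *ETV1* was at 160, 365 and 316 CPM on these 3 days and then fell to 42.8 on day 38 (-2.88, SE 0.15, adjusted p = 1.65e-16). *ETV4* was low, at 9.10 CPM on day 31 and 0.714 on day 38. On day 45 *ETV5* was above its level of day 16 (23.3 CPM) and *ETV1* below it (30.1 CPM).

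*EGR1*, an immediate early gene that ERK induces, was abundant at all times and lowest on day 45, where it fell from 2126 to 1080 CPM (-0.98, SE 0.14, adjusted p = 3.03e-06). *SPRY1*, a feedback inhibitor of the RAS-ERK pathway, also fell in that week (46.0 to 17.0 CPM, -1.43, SE 0.28, adjusted p = 0.000399). The week in which *EREG* and *HBEGF* rose thus held list members that rose and others that fell. Genes of this kind respond to inputs other than the EGF receptors as well.

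**Figure D4:**
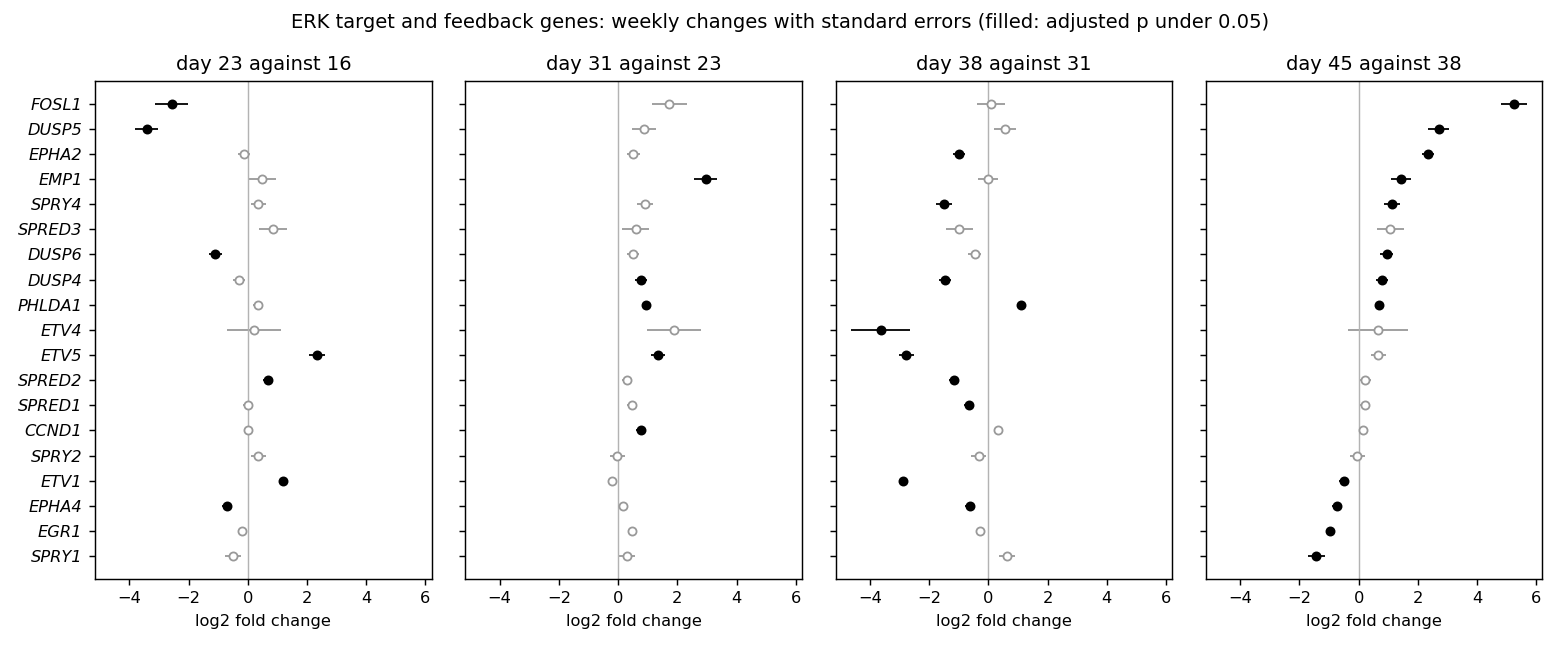
log2 fold change (x axes) of the 19 tested ERK target and feedback genes in the 4 weekly comparisons (panels), ordered by the last one, with bars for the standard error and filled points for an adjusted p under 0.05 in edgeR. In the third panel 9 filled points lie left of 0 and 1 right of it, and in the fourth panel 8 lie right, led by FOSL1 at 5.25, and 4 lie left.

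Across the 10 libraries, the course of each gene was set beside those of 13114 other genes with a mean of at least 5 CPM, by Pearson's r on log2 CPM with a prior count of 2. These values are descriptions, since 2 libraries of each point share a day and a medium. *EREG* was most like *AHR*, a ligand-activated transcription factor (r = 0.993), *PHLDA1*, which also stands in the ERK list (0.989), and *CCL20*, a chemokine (0.989). *CCL20* had no reads on days 16 and 23 and reached 83.3 CPM on day 45. *EGFR* was like *ANXA2* (0.987) and *PAG1* (0.975), and *ERBB2* was most like *RAB15* (0.980), *SMAD6* (0.977) and *LOC105371267* (0.976). *ERBB4* was most like *PLCB4* (0.993), *BCL2* (0.984) and *WASF1* (0.983), *ERBB3* like *RAP1GAP2* (0.971), *PCSK2* (0.962) and *KCNH2* (0.958), *HBEGF* like *ZSWIM6* (0.974), *SLC3A2* (0.946) and *EMC3* (0.942), and *NRG1* like *TIMM21* (0.928), *IMPDH2* (0.926) and *TDRD3* (0.920).

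Markers of other cell types moved with some of these genes. The 10 mesenchyme markers summed to 979 and 1211 CPM on day 16, 1851 and 1846 on day 23, 1916 and 2253 on day 31, 4549 and 4742 on day 38, and 4778 and 3871 on day 45, with *COL3A1* the most abundant in every library. *TWIST1*, with no reads in day 23 replicate 2, was the only one of the 10 at 0 anywhere. From day 31 to day 38, when *EGFR* rose, *COL1A1*, *COL1A2*, *COL3A1* and *PDGFRA* rose and *LUM* and *POSTN* fell, and from day 38 to day 45, when *EREG* and *HBEGF* rose, *DCN* (50.8 to 130 CPM), *PDGFRA* (22.1 to 52.6 CPM) and *LUM* (42.0 to 80.4 CPM) rose. From day 16 to day 23, when *ERBB3* rose and *ERBB4*, *NRG1* and *TGFA* fell, *COL3A1*, *DCN*, *LUM* and *POSTN* rose and *COL1A2* and *PRRX1* fell. From day 23 to day 31, when *EGFR* and *EREG* rose and *ERBB4* fell, *POSTN* rose (159 to 438 CPM) and *LUM* fell (168 to 98.6 CPM). Between day 16 and day 45, 8 of the 10 rose and 1 fell, where 12.9% of all genes were called higher and 11.7% lower. The part of such cells in the changes of *EGFR* and the other family members was not tested.

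The 7 immune markers summed to 26.1 and 11.2 CPM on day 16, 3.55 and 5.37 on day 23, 15.3 and 14.9 on day 31, 15.0 and 8.15 on day 38, and 50.1 and 50.2 on day 45, the day on which *EREG*, *AREG* and *HBEGF* were highest. *CD68*, a lysosomal protein, gave 36.4 and 35.9 CPM of the day 45 sums, and it and *CD14* rose in the last week. *LYZ*, a lysozyme of phagocytes and of secretory epithelia, had no reads on days 16 and 23, 45 and 24 counts on day 31, 28 and 22 on day 38, and 56 and 95 on day 45, and was higher on day 45 than on day 16. *CD14*, a receptor of monocytes, had 22 and 36 counts on day 45 and none on day 38. *PTPRC*, found on nearly all white blood cells, had 64 and 17 counts on day 16 and 4 and 0 on day 45. *TYROBP* had 4 and 0 counts on day 45, and *CD3E* had none in any of the 10 libraries. The 11 airway and lung markers summed to 31.8 to 37.6 CPM on day 16, 177 to 192 on day 23, 533 to 562 on day 31, 70.7 to 84.2 on day 38 and 155 to 228 on day 45, with *SFTPB*, a surfactant protein, at 500 CPM on day 31. From day 23 to day 31, when *EGFR* and *EREG* rose and *ERBB4* fell, *KRT5*, *SFTPB* and the immune marker *LYZ* rose. The airway and lung markers went both ways from day 31 to day 38, when *EGFR* and *EREG* rose and *ERBB2* fell. *MUC5AC* (1.17 to 25.8 CPM) and *MUC5B* (2.89 to 15.1 CPM) rose, and *SFTPB* (500 to 7.60 CPM) and *FOXJ1* (20.4 to 5.94 CPM) fell. In the last week *KRT5*, *MUC5B*, *SCGB3A2* and *SFTPB* rose, *MUC5AC* fell, and *SFTPC*, a defining gene of alveolar cells, had no reads on day 45. The part of immune, airway and lung cells in the changes of *EGFR*, *ERBB2*, *ERBB3*, *ERBB4*, EGF and the ligands was not tested.

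Endothelial markers summed to between 17.5 and 59.0 CPM, with *KDR* the most abundant in 9 of 10 libraries and *TEK* in the other, and with *PECAM1* at 0 in 7 of 10 libraries. *TEK* rose from 1.92 CPM on day 16 to 11.8 on day 23 and was still higher on day 45 (10.3 CPM). From day 31 to day 38 *KDR* fell from 29.9 to 9.49 CPM and *TEK* from 21.5 to 6.74 CPM. Neural markers summed to between 69.1 and 170 CPM, with *MAP2* the most abundant in every library in the list. Between day 16 and day 45 *MAP2* fell from 67.2 to 33.9 CPM and *ELAVL4* from 4.96 to 0.981 CPM, and *TUBB3* rose from 3.81 to 25.2 CPM. The 5 pluripotency markers summed to 186 and 175 CPM on day 16 and to 6.24 and 9.50 on day 45, most of it *DPPA4* in each library, and *POU5F1* had at most 1 read in a library. From day 16 to day 23, when *ERBB4*, *NRG1* and *TGFA* fell, *LIN28A* fell from 33.2 to 1.13 CPM. In that step the neural marker *DCX* rose from 1.92 to 16.0 CPM. Muscle markers summed to between 947 and 1772 CPM, of which *TTN*, a very long gene, gave most, and *MYOD1* was at 0 in all libraries. From day 31 to day 38, the step in which *EGFR* rose, *TTN* fell while the heart muscle genes *MYH6* (15.5 to 92.4 CPM), *ACTN2* (to 13.2 CPM) and *MYL7* (0.328 to 10.3 CPM) rose. Between day 16 and day 45 *TTN* fell from 1649 to 931 CPM, and *MYH6* (7.09 to 86.1 CPM), *ACTN2* (4.70 to 20.3 CPM) and *TNNT2* (1.71 to 9.34 CPM) rose. The part of these cells in the fall of *ERBB4* and the other changes was not tested.

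**Figure D5:**
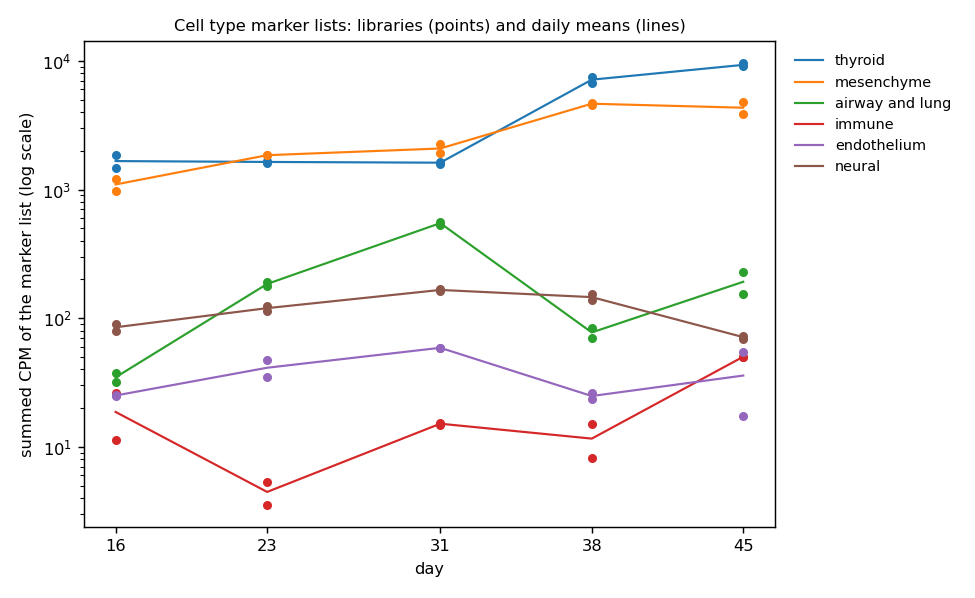
Summed CPM (y axis, log scale) of 6 marker lists against the day (x axis), with a point for each library and lines through the daily means. Thyroid and mesenchyme markers are highest from day 38, airway and lung markers peak on day 31, where SFTPB alone gives 499 and 502 of 533 and 562 CPM, and immune markers are highest on day 45 (50.1 and 50.2 CPM).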

How the data were processed

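Ovation Solo low-input libraries of the sorted cells were read in pairs on a HiSeq instrument, by the study's methods. Trimmomatic removed adapters, HISAT2 placed the reads on GRCh38, and HTSeq assigned them to genes of Ensembl GRCh38.p13. The authors deposited the resulting raw counts without normalization. These steps ran on the Galaxy platform. The versions of the single tools and the strand setting are not given in the sources used here. Replicate counts differed by more than sampling noise on each day (chi-square per degree of freedom 8.38 to 13.7), which does not separate biological from technical spread.

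CPM used TMM factors (0.896 to 1.07). Genes reaching 5 counts in 2 or more libraries were fitted in edgeR 4.0.16 (glmQLFit, glmQLFTest, R 4.3.3) with 1 mean per day, which leaves 5 residual degrees of freedom. P-values were adjusted by Benjamini-Hochberg over 21014 genes with a threshold of 0.05, and standard errors are approximate. The procedure was tested on simulated data. Exon lengths and positions came from GENCODE 44, promoter windows from RefSeq. The family members and gene lists were chosen with earlier results of these data known. From each pathway list and comparison, up to 2 called genes in each direction, those of largest log2 fold change with a mean of at least 5 CPM, could be named, together with EGF, EPGN, the neuregulins, the markers and, for each family member with a mean of at least 5 CPM, the 3 genes of most similar course, of which 1 is not reported here. ADAM9, ADAM17, ETV4 and IER3 were named after their values were seen. Alternatives were DESeq2 1.42.0, library size or upper-quartile scaling, other filters, fits of the 4 libraries compared, a replicate block, a minimum fold change, longest transcript length and leaving out each library.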

Additional observations from a re-analysis of the deposited data

How the results depend on the processing

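Each comparison rests on 2 libraries per day, and the depth of 7247268 to 10333933 counts leaves AREG, BTC and TGFA close to the floor on several days. No fold change of a family member that was called by edgeR changed its sign under any of the alternatives run. Without day 31 replicate 2, TGFA had no read on day 23 or day 31 and gave no value for that step. The deviations of equally numbered libraries from the mean of their day had correlations between -0.033 and 0.022, and 0 of 10 pairs exceeded 0.1. These correlations weigh all genes alike, noisy low-count genes included, so they cannot exclude a batch shared by replicate number. The replicate block raised the genes called from 2296 to 2703 (day 16 to 23) and from 3160 to 3472 (day 31 to 38). With the replicate block, ERBB3 from day 31 to day 38 passed (adjusted p = 0.044) and no other member fold change given here changed its call. The pathway genes called from day 23 to day 31 went from 7 to 12 with the block, and to 11 with no low-count filter. All genes called in that step went from 473 of 21014 to 678 with the block, and to 667 of 24177 with no low-count filter.

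Requiring in addition an absolute log2 fold change of at least 1 lowered the genes called from day 16 to 23, 23 to 31, 31 to 38, 38 to 45 and 16 to 45 to 1183, 282, 1691, 1202 and 3252, and the pathway genes called to 8, 2, 15, 10 and 20 (from 13, 7, 31, 21 and 32). The family members called in these comparisons were 4, 2, 1, 3 and 6, and 4, 3, 3, 3 and 7 without the requirement. The calls of EGFR (day 23 to 31 and 31 to 38), ERBB2 (day 31 to 38) and ERBB3 (day 16 to 45) were lost. With the longest transcript length, the receptor sum was 66.8 CPM per kb at day 16 and 54.6 at day 45, the ligand sum 6.38 and 32.2, the share of ERBB4 17.3% and 1.55%, and that of EGFR at day 45 43.9%. Library size without TMM factors gave a receptor sum of 29.3 and a ligand sum of 24.1 CPM per kb at day 45.

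When each library was left out in turn, the genes called ranged from 1350 to 2383 (day 16 to 23), 206 to 646 (day 23 to 31), 1764 to 3613 (day 31 to 38) and 1166 to 2815 (day 38 to 45), all lowest when a library of a compared day was missing. The pathway genes called ranged from 5 to 11 (day 23 to 31), 18 to 36 (day 31 to 38) and 11 to 23 (day 38 to 45). In the same fits the log2 fold change from day 16 to day 45 ranged from 0.895 to 1.469 for EGFR and from -1.472 to -1.018 for ERBB2. It ranged from 0.750 to 0.892 for ERBB3, from -3.877 to -3.653 for ERBB4 and from 1.921 to 2.257 for HBEGF.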
